A study of Danio rerio with 23 samples.

Results

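The hox genes are the 48 features whose zebrafish symbol starts with hox, of 31902 features counted in each endodermal library. Of these 48, 40 were paired with a single zebrafish gene and 8 only with a symbol that leaves the a or b copy open, and those 8 are given here with their Ensembl identifier. All 48 were kept, whether or not reads were found on them.

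Hox genes encode homeodomain transcription factors that give cells a position along the head-to-tail axis. They lie in clusters, and within a cluster the genes of low paralogue number are in general expressed from more anterior levels than those of high number. Zebrafish carry duplicate clusters, marked a and b, and in the vertebrate gut the genes of the highest numbers are known for the hindgut and cloaca.

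Transcripts were counted in 23 libraries of sorted zebrafish cells of the AB strain, in 7 groups. The first experiment used pax6b:GFP+ enteroendocrine cells (EECs), the hormone-secreting cells of the gut epithelium, sorted at 4 dpf from dissected guts of larvae homozygous for neurod1ΔUCE, an in-frame deletion of a conserved element of the Neurod1 protein (EEC neurod1ΔUCE, n = 4), or of wild-type larvae (EEC WT, n = 3), with no heat shock. The second used dsred+ cells sorted at 52 hpf from dissected trunks of Tg(sox17:dsred) embryos, heat-shocked at 38 and 48 hpf, that carried a heat-inducible hsp70l transgene for Ascl1a (n = 3), Neurod1 (n = 4), Neurod1 without the UCE (Neurod1ΔUCE, n = 3) or Neurod1 without the ECD, a longer conserved domain that includes the UCE (Neurod1ΔECD, n = 3), or no further transgene (control, n = 3). Each endodermal library came from about 150 pooled embryos with 2000 to 4000 sorted cells, and each EEC library from about 200 larvae with 1000 to 2000 sorted cells. The hsp70l promoter is not restricted to endoderm, the pax6b reporter marks endocrine cells and the sox17 reporter marks endoderm of every level kept in the trunk, so each library averages over positions along the axis.

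Total counts were 8626863 to 15894943 in EEC libraries and 8364374 to 22301304 in endodermal libraries. Levels are CPM normalized with TMM over all 23 libraries. A gene counts as detected in a library above 3 counts, a floor that covers counting error only, since the libraries carry no molecular identifiers. The feature for the ascl1a coding sequence stood at 28.8 to 244 CPM in Ascl1a libraries and at most at 2.85 CPM in control libraries. The feature for the neurod1 region of the transgene stood at 20.9 to 51.0 CPM in Neurod1 libraries, 1346, 1.24 and 1.67 CPM in Neurod1ΔUCE, 3.00 to 7.54 CPM in Neurod1ΔECD and 0.124 to 1.30 CPM in control libraries, and at 22.4 to 164 CPM in Ascl1a libraries. It thus did not separate replicate 2 labelled Neurod1ΔUCE from control replicate 1, and reads were also counted on it in the libraries labelled Ascl1a. In Ascl1a replicates 1 to 3 it had 25.5, 164 and 22.4 CPM, and the ascl1a coding feature 33.2, 244 and 28.8 CPM. The separate neurod1 feature had 1.25 to 7.41 CPM with Ascl1a and 23.0 to 76.0 CPM with Neurod1. The source of these reads was not tested. The paper left out reads that mapped to both the transgene feature and neurod1, so a low value of the transgene feature does not show a missing transgene. In EEC neurod1ΔUCE the deletion lies inside the gene, so the neurod1 level checks nothing. The 8 EEC markers summed to 15398 to 55804 CPM in EEC neurod1ΔUCE, 14115 to 23878 CPM in EEC WT and 20.3 to 187 CPM in control libraries. They summed to 374, 686 and 108 CPM in Neurod1ΔUCE libraries. In replicate 2 the hormone gene sst2 alone stood at 386 CPM, and ins, which is not on that list, at 676 CPM. The sums were 35.4 to 159 CPM with Ascl1a, 255 to 699 CPM with Neurod1 and 60.9 to 199 CPM with Neurod1ΔECD. The 8 endodermal markers summed to 1309 to 2535 CPM over all libraries. Muscle markers summed to 16865 CPM in control replicate 3, 7744 CPM in Neurod1 replicate 2 and at most 22.1 CPM in any EEC library. Nearly all of the first 2 sums was a single gene, actc1b, at 16857 and 7739 CPM.

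The first question was which hox genes the endodermal cells and the EECs express. In EEC neurod1ΔUCE 15 of the 48 members were detected in every library, 27 in some and 6 in none. In EEC WT 29 members were detected in all libraries, 17 in some and 2, hoxb1a and hoxa2b, in none. Control endoderm showed nearly the whole set, with 45 members detected in every library and the other 3 in some. Per library, 22 to 37 members were detected in EEC neurod1ΔUCE and 29 to 46 in EEC WT, against 42 to 48 in the 16 endodermal libraries. The libraries with the fewest hox genes in each EEC group also had the fewest features of any kind above 3 counts: 14606 in EEC neurod1ΔUCE replicate 3, with 22 hox genes, and 14682 in EEC WT replicate 3, with 29, against 16062 to 18733 in the other EEC libraries and 16606 to 20575 in endoderm. The part of this in the hox values was not tested.

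**Figure D1:**
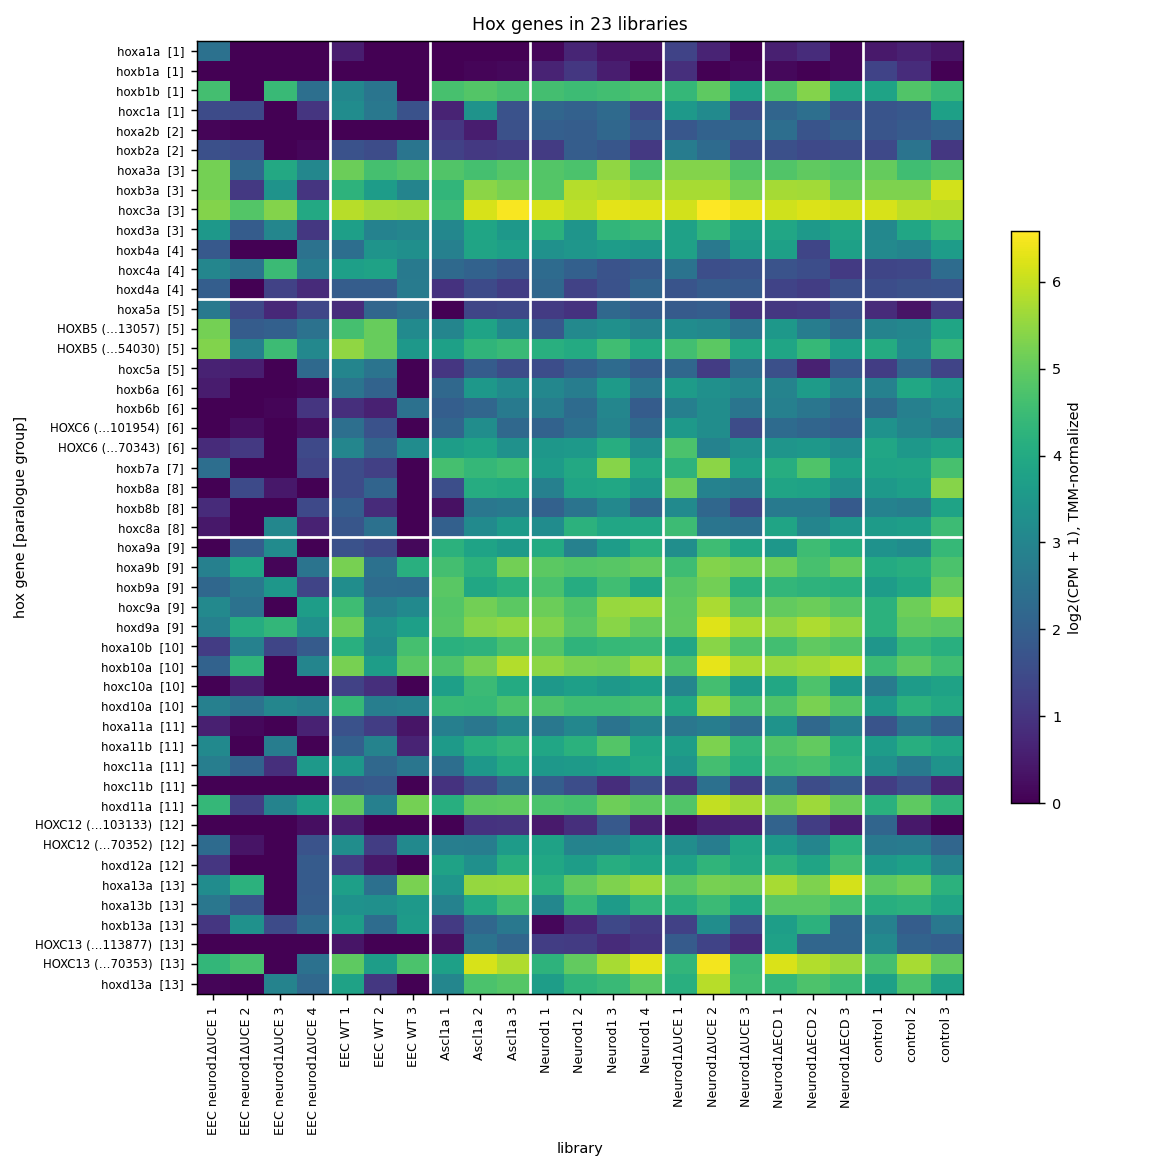
Level of each of the 48 hox genes, as log2(CPM + 1), in each of the 23 libraries. Rows run from paralogue group 1 at the top to 13 at the bottom, with white lines after groups 4 and 8, and white vertical lines part the groups of libraries. The EEC columns at the left hold many genes at or near 0, while 42 to 48 members were detected in each endodermal library.

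The summed hox level was 362, 188, 218 and 153 CPM in EEC neurod1ΔUCE, against 574, 325 and 386 CPM in EEC WT. It was 482, 791 and 846 CPM with Ascl1a, 660, 680, 869 and 822 CPM with Neurod1, 749, 1181 and 743 CPM with Neurod1ΔUCE and 892, 926 and 802 CPM with Neurod1ΔECD, against 556, 679 and 764 CPM in control libraries. Neurod1ΔECD was the only transgene group whose libraries all lay above the control libraries. In these bulk samples a lower level can come from fewer expressing cells or from less RNA per cell, and these cannot be told apart.

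Reads came from low and high paralogue numbers in every group of libraries. In EEC WT, paralogue group 3 held 24.2 ± 3.60% of hox reads, group 13 held 14.8 ± 6.53%, group 10 held 12.2 ± 3.67% and group 9 held 12.2 ± 5.29% (SD, n = 3). In control endoderm, group 3 held 23.1 ± 3.48%, group 9 held 16.1 ± 3.84%, group 13 held 16.03 ± 4.71% and group 10 held 9.70 ± 1.73% (SD, n = 3). Of the paralogue groups between these numbers, group 5 held 13.8 ± 8.24% in EEC WT and 3.99 ± 1.04% in control endoderm. Groups 7 and 8 held 0.25 ± 0.22% and 1.29 ± 1.32% in EEC WT, against 2.51 ± 0.63% and 6.48 ± 3.00% in control endoderm. These shares are descriptions without a test, and since reads were not divided by transcript length, a share is one of reads and not of molecules. The position of the cells was not measured, so the shares describe paralogues and not places along the axis.

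By mean CPM the leading 6 members in EEC WT were hoxc3a, HOXB5 (ENSDARG00000054030), hoxa3a, hoxb10a, hoxd11a and HOXC13 (ENSDARG00000070353), and in control endoderm hoxc3a, hoxb3a, HOXC13 (ENSDARG00000070353), hoxc9a, hoxa13a and hoxa3a. HOXB5 (ENSDARG00000054030) had 43.5, 32.3 and 10.3 CPM in EEC WT, against 15.5, 8.00 and 20.1 CPM in control endoderm, and HOXC13 (ENSDARG00000070353) had 29.7, 11.7 and 25.5 CPM in EEC WT, against 23.5, 51.7 and 30.9 CPM in control endoderm, so that both overlapped between the groups. hoxc3a had 39.9, 27.2, 40.4 and 14.6 CPM in EEC neurod1ΔUCE, 58.1, 49.4 and 48.2 CPM in EEC WT and 71.2, 59.3 and 58.2 CPM in control endoderm. hoxa3a had 33.6, 24.1 and 26.8 CPM in EEC WT and 31.3, 22.8 and 26.8 CPM in control endoderm, 2 sets that overlapped. hoxc9a had 22.4, 6.15 and 7.78 CPM in EEC WT and 17.6, 34.2 and 49.5 CPM in control endoderm, which also overlapped. In the RefSeq annotation the span of hoxc3a holds hoxc9a, hoxc8a, hoxc6a, hoxc5a and hoxc4a, and that of hoxb3a holds hoxb6a, hoxb5a and hoxb4a. The spans of hoxa3a (hoxa5a and hoxa4a), hoxb1b (hoxb6b and hoxb5b) and hoxd3a (hoxd4a) also hold other hox genes. These spans include introns and are from another genome assembly than the counts, so they do not show which reads were left out. Reads that overlap more than a single gene are not counted, so the split of reads within these stretches is uncertain.

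To summarize the paralogues read in 1 value, the paralogue number was averaged over the hox reads of each library. This mean was 5.80, 8.71, 5.54 and 7.83 in EEC neurod1ΔUCE and 7.56, 6.21 and 8.20 in EEC WT. It was 7.83, 8.13 and 8.28 with Ascl1a, 7.66, 7.81, 7.76 and 8.31 with Neurod1, 7.28, 8.48 and 8.15 with Neurod1ΔUCE and 8.56, 8.38 and 8.74 with Neurod1ΔECD, against 7.57, 8.10 and 7.30 in control endoderm. The EEC libraries thus spread more widely within a group than the endodermal libraries, and the Neurod1ΔECD libraries all lay above the control libraries. The lowest EEC WT value, 6.21, was that of replicate 2. Liver markers summed to 3057 CPM in that library, against 49.8 CPM in EEC WT replicate 1 and 41.4 CPM in replicate 3. Their part in the spread was not tested. The Neurod1ΔECD mean exceeded the control mean by 0.90 paralogue numbers, and by 0.38 when log2(CPM + 1) was used as the weight.

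**Figure D2:**
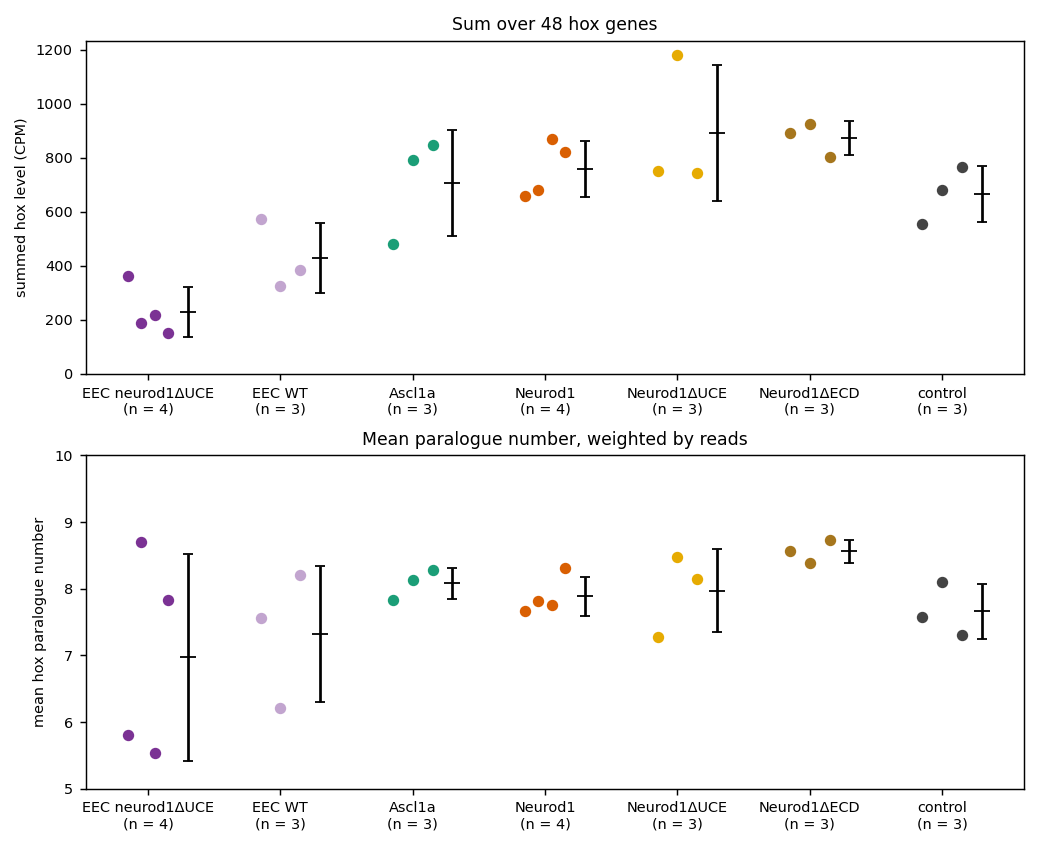
Summed level of the 48 hox genes in CPM (top) and their mean paralogue number weighted by reads (bottom, axis from 5 to 10), 1 point per library, with the mean and SD of each group beside the points. The 3 Neurod1ΔECD libraries sit at 802 to 926 CPM and at 8.38 to 8.74, above the control libraries in both panels. Without TMM the summed levels of these 2 groups overlapped. The EEC groups spread most widely in the lower panel.

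The spread between replicates was also visible gene by gene. Over the members that averaged above 1 CPM, the median coefficient of variation was 93.9% in EEC neurod1ΔUCE and 65.3% in EEC WT, against 28.7 to 43.8% in the endodermal groups. hoxa13a, whose mouse counterpart acts in the hindgut, had 12.1, 4.36 and 37.2 CPM in EEC WT, against 30.04, 34.2 and 17.7 CPM in control endoderm. hoxd13a had 13.05, 1.11 and 0 CPM in EEC WT, the highest coefficient of variation there, at 153% among the 41 members above 1 CPM.

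The second question was whether the transgenes changed the hox genes of the endoderm. The 4 transgene groups were each set against the same 3 control libraries, so their results are not independent of each other. Of the 48 members, 47 passed the filter on low counts, and none was called at an FDR of 0.1 in edgeR's quasi-likelihood test in any of these comparisons, in which 0.0159% (Ascl1a), 0.0423% (Neurod1), 0.0582% (Neurod1ΔUCE) and 0.0423% (Neurod1ΔECD) of all 18911 features were called. At an unadjusted p under 0.05, 1 member was past the threshold with Ascl1a (6.11% of all features), 2 with Neurod1 (4.25%), 6 with Neurod1ΔUCE (7.11%) and 7 with Neurod1ΔECD (6.13%). DESeq2 and voom called no member in these 4 comparisons. The joint test for any difference among the 5 groups called none either (0.159% of all features), with 4 members at an unadjusted p under 0.05 (5.17%). DESeq2's joint test called 1 of 48 members, hoxb13a, and 353 of 28366 features.

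The values with Neurod1ΔECD were highest in the posterior groups. Of the 23 members in paralogue groups 9 to 13, 21 had a fitted log2 fold change above 0, with a median of 0.73, against 48.2% of all features and a median of -0.03. The medians were -0.21 for groups 1 to 4 and -0.46 for groups 5 to 8. All libraries lay above all control libraries for 10 members, each of them in groups 9 to 13, against 11.4% of all features, and below them for 3 members, both HOXC6 features and hoxb8b, against 7.01%. The summed level of groups 9 to 13 was 577, 597 and 547 CPM with Neurod1ΔECD and 275, 396 and 361 CPM in control endoderm. Intestinal markers summed to 1414, 2403 and 1002 CPM with Neurod1ΔECD and 976, 1251 and 820 CPM in control endoderm, and their part in the hox values was not tested.

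hoxc11a, of the hoxca cluster, had the smallest p with Neurod1ΔECD. It had 22.8, 24.2 and 18.4 CPM with Neurod1ΔECD, against 8.86, 5.56 and 9.42 CPM in control endoderm. The groups did not overlap, and the log2 fold change was 1.38 ± 0.43 (SE), with an adjusted p of 0.75. The other members at an unadjusted p under 0.05 were hoxd9a, hoxb10a, hoxd10a, hoxd11a, HOXC12 (ENSDARG00000070352) and hoxd12a, with log2 fold changes of 0.74 to 1.19. Among them hoxb10a had 46.0, 49.5 and 57.9 CPM with Neurod1ΔECD, against 21.9, 30.6 and 22.5 CPM in control endoderm.

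With Neurod1ΔUCE, 20 of the 23 members of groups 9 to 13 had a log2 fold change above 0 (51.4% of all features), with a median of 0.59. hoxd9a had the smallest p, with 30.2, 76.3 and 51.3 CPM in the libraries labelled Neurod1ΔUCE, against 17.6, 30.8 and 28.8 CPM in control endoderm. Its replicate 1 fell between control values, so the groups overlapped, and the log2 fold change was 0.97 ± 0.32 (SE), with an adjusted p of 0.50. The 6 members at an unadjusted p under 0.05 were hoxa9b, hoxd9a, hoxb10a, hoxd10a, hoxc11a and hoxd11a, and replicate 2 was the highest library for each of them.

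With Neurod1, 18 of 23 members of groups 9 to 13 had a log2 fold change above 0 (50.1% of all features), with a median of 0.32. The smallest p belonged to hoxb13a, a member of the last paralogue group, which had 0.0805, 0.68, 1.71 and 1.21 CPM with Neurod1 (1 to 27 counts), against 6.38, 2.87 and 5.19 CPM in control endoderm. The groups did not overlap, and the log2 fold change was -2.37 ± 0.82 (SE), with an adjusted p of 0.93. HOXC13 (ENSDARG00000113877) had 1.29, 1.19, 0.758 and 1.03 CPM with Neurod1, against 7.51, 3.30 and 2.90 CPM in control endoderm, again without overlap and with an adjusted p of 0.97.

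With Ascl1a, 18 of 23 members of groups 9 to 13 had a log2 fold change above 0 (49% of all features), with a median of 0.30, while the median of groups 1 to 4 was -0.46. hoxa2b, known for patterning the hindbrain and the second pharyngeal arch, had 1.06, 0.444 and 2.08 CPM with Ascl1a, against 2.33, 2.69 and 3.38 CPM in control endoderm. These are 7 to 21 counts in Ascl1a libraries and 31 to 56 counts in control libraries. The groups did not overlap, and the log2 fold change was -1.25 ± 0.59 (SE), with an adjusted p of 0.80.

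**Figure D3:**
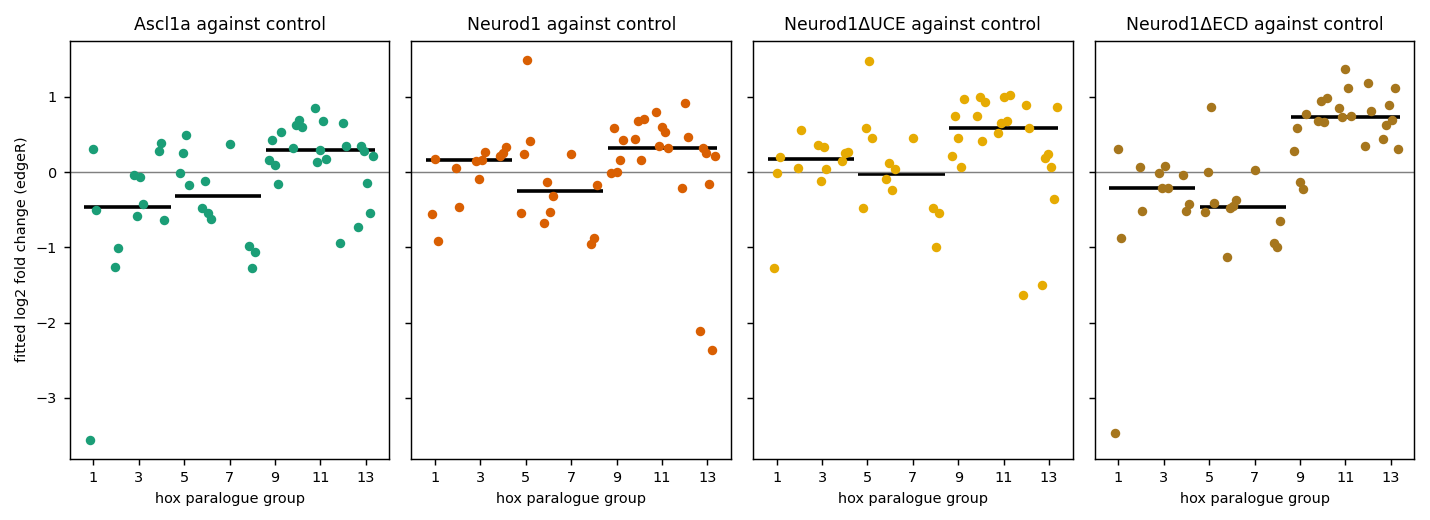
Fitted log2 fold change of each tested hox gene against control endoderm (vertical axis) by paralogue group (horizontal axis), 1 panel for each transgene, with 1 point per gene and black bars at the medians of groups 1 to 4, 5 to 8 and 9 to 13. The bar of groups 9 to 13 stands at 0.30 with Ascl1a, 0.32 with Neurod1, 0.59 with Neurod1ΔUCE and 0.73 with Neurod1ΔECD, and no single gene passed the FDR threshold.

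Setting the transgenes against each other also gave no called member. With Neurod1 against Ascl1a, where 0.037% of all features were called, 2 members were at an unadjusted p under 0.05 (5.37%). hoxa2b had 2.98, 2.81, 3.60 and 2.48 CPM with Neurod1, against 1.06, 0.444 and 2.08 CPM with Ascl1a, a log2 difference of 1.31 ± 0.56 (SE) with an adjusted p of 0.89. With Neurod1ΔUCE against Neurod1, where 0% of features were called, 2 members, hoxd11a and hoxb13a, were at an unadjusted p under 0.05 (2.62%).

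Over these 3 comparisons, the only pairs of transgenes fitted, the largest difference of a hox gene was that of hoxb13a with Neurod1ΔECD against Neurod1, a comparison in which 0% of features were called. It had 11.9, 17.9 and 3.57 CPM with Neurod1ΔECD, against 0.0805, 0.68, 1.71 and 1.21 CPM with Neurod1. The groups did not overlap, the log2 difference was 3.48 ± 0.85 (SE) and the adjusted p was 0.91. DESeq2 called this gene, with an adjusted p of 0.063, as 1 of 48 members, and it called 21 of 28368 features. On simulated counts of other comparisons, drawn with dispersions fitted by edgeR, 34.5 to 49.1% of the calls of DESeq2 were unchanged genes. Neurod1ΔECD against Neurod1 was not simulated, so that share does not measure how reliable this call is. HOXC13 (ENSDARG00000113877) and hoxa13b were the other 2 of the 3 members at an unadjusted p under 0.05 (4.34% of all features), and all 6 tested members of group 13 had a log2 difference above 0 (46.4% of all features).

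**Figure D4:**
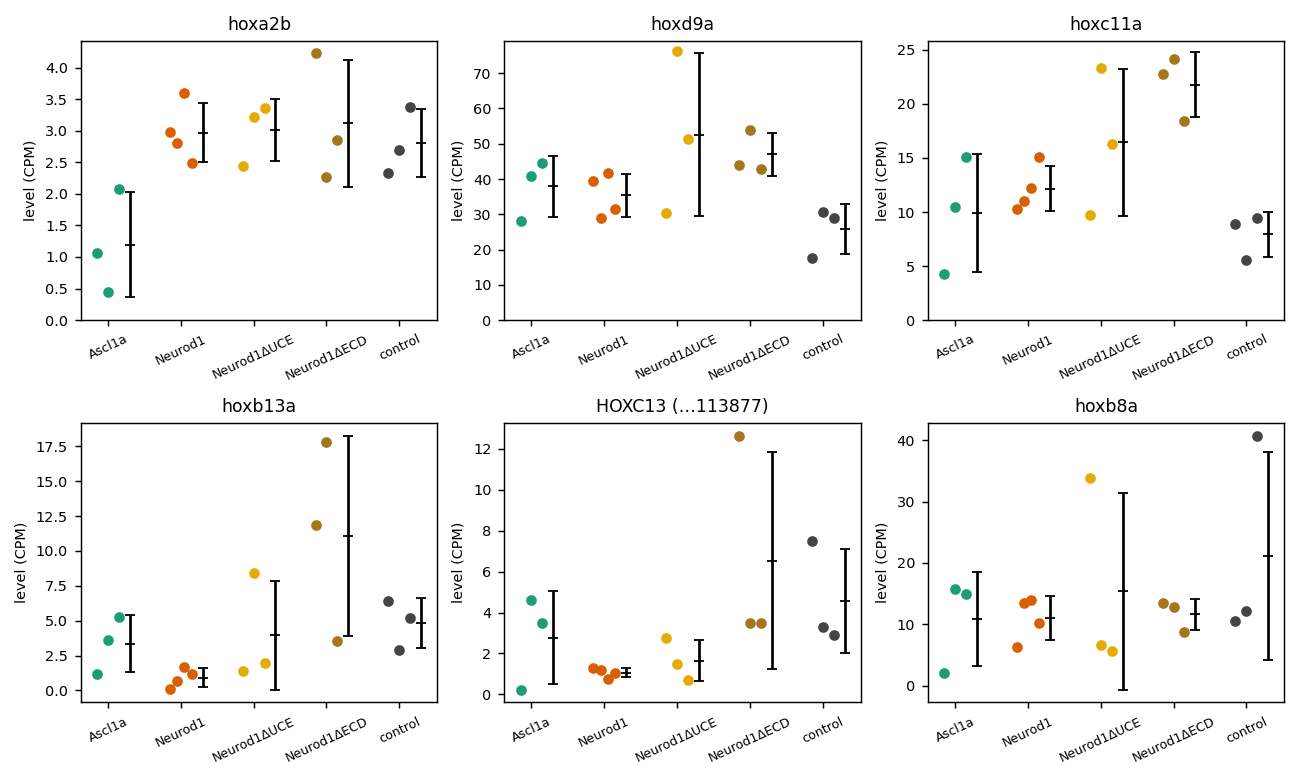
Level in CPM of 6 hox genes in the 5 endodermal groups, 1 point per library, with the mean and SD of each group beside the points. hoxc11a stands at 18.4 to 24.2 CPM with Neurod1ΔECD, above the control libraries, hoxb13a and HOXC13 (ENSDARG00000113877) are below the control libraries with Neurod1, and control replicate 3 is the highest library for hoxb8a, at 40.8 CPM.

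The third question was whether the EECs of neurod1ΔUCE larvae differ from those of wild-type larvae in hox expression. Of the 48 members, 36 passed the filter on low counts, and none was called, against 0.0186% of 16154 features. Only 1 member, hoxa10b, had an unadjusted p under 0.05, against 3.7% of all features, and neither DESeq2 nor voom called a member. Fitted values were mostly below 0 in the mutant: 32 of the 36 members tested had a log2 fold change below 0, against 48.5% of all features, with a median of -0.85 against 0.02 for all features. The median was -1.86 with voom and -1.42 with the replicate number as a block. A member could pass the filter through the group where it was high, so this count is a description.

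hoxa10b had 1.25, 6.44, 1.62 and 2.68 CPM in EEC neurod1ΔUCE, against 16.9, 8.20 and 24 CPM in EEC WT. The groups did not overlap, and the log2 fold change was -2.43 ± 0.86 (SE), with an adjusted p of 0.99994. The libraries also did not overlap, lower in the mutant, for hoxc1a, hoxc3a, HOXC6 (ENSDARG00000070343) and hoxa13b, which makes 5 members, against 3.53% of all features. hoxa13b had 5.16, 2.33, 0 and 2.86 CPM in EEC neurod1ΔUCE and 9.15, 8.80 and 10.8 CPM in EEC WT. The summed hox level overlapped between the groups, since replicate 1 of the mutant, at 362 CPM, exceeded replicate 2 of the wild type, at 325 CPM.

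Mutant libraries were made up differently from each other. Groups 9 to 13 held 29.7%, 69.6%, 31.5% and 57.7% of hox reads in EEC neurod1ΔUCE, against 54.6%, 32.1% and 60.8% in EEC WT. The 2 sets overlapped widely, and the means were 47.1 ± 19.7% (SD, n = 4) in the mutant and 49.2 ± 15.1% (SD, n = 3) in the wild type.

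The last comparison set EEC WT against control endoderm. Stage, dissection of the gut or the trunk, reporter, heat shock and dissociation enzyme all differ between these groups and cannot be told apart from cell type. Here 11 of the 47 members tested were called, or 23.4%, against 38.1% of all 20397 features. Only 1 was higher in EEC WT (16.1% of features) and 10 were lower (22%). The members had a median log2 fold change of -0.68, against -0.19 for all features.

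hoxc4a was the member called higher by edgeR. It had 12.2, 12.8 and 5.50 CPM in EEC WT, against 1.58, 1.65 and 4.05 CPM in control endoderm, with a log2 fold change of 2.06 ± 0.71 (SE) and an adjusted p of 0.033. Without control replicate 1 or control replicate 2 it was no longer called, with log2 fold changes of 1.79 and 1.87. It lies within the span of hoxc3a, whose log2 fold change was -0.28 with an adjusted p of 0.64. The 4 members of paralogue group 5 had log2 fold changes of 0.90 to 1.92, and edgeR called none of them, while voom called both HOXB5 features and DESeq2 called hoxa5a.

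The genes called lower came from anterior, middle and posterior groups. hoxa2b had 0 counts in every EEC WT library and 31, 31 and 56 counts in control endoderm, so it was at least 9.84-fold lower, taking 3 counts in the EEC WT library with the highest such floor as its level. hoxb1a, known for the identity of a hindbrain segment, also had 0 counts in EEC WT, but 20, 9 and 0 counts in control endoderm, so the groups met at 0. hoxb3a had 18, 11.4 and 6.83 CPM in EEC WT and 38.8, 38.6 and 69.2 CPM in control endoderm, with a log2 fold change of -2.01 ± 0.83 (SE) and an adjusted p of 0.071.

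In the middle groups hoxb7a had 1.87, 1.37 and 0 CPM in EEC WT, against 13.2, 13.3 and 24.4 CPM in control endoderm, a log2 fold change of -3.95 ± 1.24 (SE) with an adjusted p of 0.021. hoxb8a had 1.87, 3.33 and 0 CPM in EEC WT, against 10.5, 12.2 and 40.8 CPM in control endoderm, a log2 fold change of -3.60 ± 1.30 (SE) with an adjusted p of 0.042. Neither gene overlapped between the groups, and EEC WT replicate 3 had no read on either. The 12 members of groups 5 to 8 had a median log2 fold change of -1.69.

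In the posterior groups hoxa9a, hoxb9a, hoxc10a, hoxd12a and HOXC13 (ENSDARG00000113877) were called lower. hoxc10a had 1.44, 0.854 and 0 CPM in EEC WT, against 5.71, 11.2 and 12.9 CPM in control endoderm, a log2 fold change of -3.66 ± 1.03 (SE) with an adjusted p of 0.011. hoxd12a had 1.22, 0.342 and 0 CPM in EEC WT, against 10.7, 12.3 and 6.70 CPM in control endoderm, a log2 fold change of -4.18 ± 1.17 (SE) with an adjusted p of 0.011. HOXC13 (ENSDARG00000113877) had 4, 0 and 0 counts in EEC WT, against 100, 38 and 48 counts in control endoderm, with an adjusted p of 0.0064. hoxa9a had 2.16, 1.71 and 0.0949 CPM in EEC WT, against 9.16, 8.17 and 20.3 CPM in control endoderm, a log2 fold change of -3.23 ± 1.25 (SE) with an adjusted p of 0.057. hoxb9a had 8.36, 4.01 and 3.89 CPM in EEC WT, against 11.3, 14.3 and 31.3 CPM in control endoderm, a log2 fold change of -1.80 ± 0.58 (SE) with an adjusted p of 0.024. Neither overlapped between the groups.

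Among the posterior genes that edgeR did not call, hoxb10a had 36.8, 11.6 and 28.8 CPM in EEC WT and 21.9, 30.6 and 22.5 CPM in control endoderm, and hoxd11a had 30.8, 6.23 and 36.1 CPM in EEC WT and 17.0, 29.9 and 18.9 CPM in control endoderm. Their fitted log2 fold changes were 0.05 ± 0.84 and 0.15 ± 0.64 (SE), with a sign that changed when single libraries were left out. DESeq2 also called hoxa11a lower and voom hoxa11b, and without EEC WT replicate 1 edgeR called hoxc9a, hoxd9a, hoxd10a, HOXC12 (ENSDARG00000103133) and hoxd13a as well. The libraries of EEC WT all lay above those of control endoderm for 2 members, hoxc4a and hoxd4a (20.7% of features), and below them for 19 (28%).

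Markers of other cell types moved with this comparison. Muscle markers summed to 0.598 to 22.1 CPM in EEC WT, against 411, 97.0 and 16865 CPM in control endoderm, blood markers to at most 1.02 CPM in EEC WT, against 90.7 to 451 CPM, and the 2 endothelial markers to at most 0.598 CPM in EEC WT, against 21.6 to 37.3 CPM. Of the 3 muscle markers, myod1 and myf5 were at 3 counts or fewer in every EEC WT library. In control endoderm myod1 stood at 0.348 to 6.95 CPM, myf5 at 1.45 to 2.25 CPM and actc1b at 95.1 to 16857 CPM. Neural markers summed to 213, 161 and 136 CPM in EEC WT, against 38.5, 5.22 and 329 CPM in control endoderm. Most of the EEC WT sums was snap25a, the only neural marker called, at 91.4 to 139 CPM, against 3.22 to 24.5 CPM in control endoderm. A separate list for neural crest and enteric neurons summed to 492 to 643 CPM in EEC WT, against 8.87 to 35.0 CPM in control endoderm. From that list ret, at 449 to 617 CPM in EEC WT, and phox2bb, at 26.1 to 60.1 CPM, were called higher, and crestin was called lower. The part of these marker lists in the hox values was not tested.

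Control replicate 3 had the highest muscle, neural and endothelial marker sums of the control libraries. Among the called members it was the highest control library for hoxa2b, hoxb3a, hoxc4a, hoxb7a, hoxb8a, hoxa9a, hoxb9a and hoxc10a. It was the lowest for hoxb1a, hoxd12a and HOXC13 (ENSDARG00000113877). Its blood marker sum was the lowest of the controls, at 90.7 CPM against 188 and 451 CPM. Control replicate 3 also had the highest epidermal sum of the controls, at 8756 CPM against 2717 and 5093 CPM. The same held for its neural crest, EEC, pharynx and pancreas sums. Its lateral plate, liver, kidney and notochord sums were not the highest, and its endodermal and intestinal sums were the lowest of the controls. Without control replicate 3, 7 members were called (6417 of 21140 features), and hoxb3a, hoxb8a, hoxa9a and hoxb9a were no longer among them. Without EEC WT replicate 3, in which several hox genes had no read, 8 were called (6076 of 21172 features). In that setting hoxb1a, hoxb3a, hoxb8a and hoxa9a were lost. hoxb1a was also lost without EEC WT replicate 1 or control replicate 1, and hoxb3a without EEC WT replicate 2, while hoxa2b, hoxb7a, hoxc10a, hoxd12a and HOXC13 (ENSDARG00000113877) were called without any single library.

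**Figure D5:**
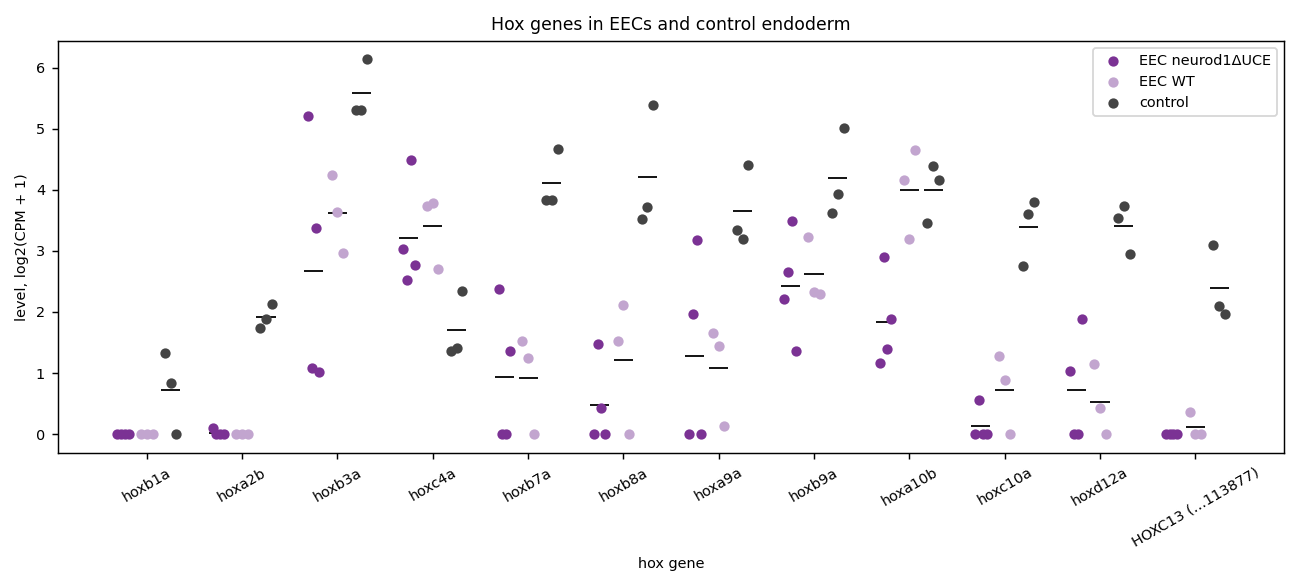
Level, as log2(CPM + 1), of 12 hox genes in EEC neurod1ΔUCE, EEC WT and control endoderm, 1 point per library, with black bars at the means of the log2 values. hoxc4a is higher in EEC WT than in control endoderm, hoxb7a, hoxb8a, hoxc10a and hoxd12a are lower, and hoxa10b is lower in EEC neurod1ΔUCE than in EEC WT without a called difference.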

How the data were processed

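RNA-seq of sorted cells was analysed in 23 libraries, grouped by their labels. The authors deposited raw read counts per Ensembl gene. They trimmed the reads, mapped them with STAR 2.5.4b to GRCz11 and counted them with STAR's gene counting, which keeps reads that overlap a single gene. The strand setting is not given in the sources used here, so overlapping genes and near-identical paralogs are uncertain. Of 31902 identifiers, 29181 were paired with a name. For 22 hox genes the a or b copy was given by the only RefSeq symbol left free, and hoxa4a and hoxa10ap had no identifier paired.

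Counts were analysed in R 4.3.3 with edgeR 4.0.16 (TMM, filterByExpr, quasi-likelihood test). Fits over all features covered the 16 endodermal libraries, the 7 EEC libraries, and all 23 for EEC WT against control. P-values were adjusted over all features of a fit with the Benjamini-Hochberg method, and genes at an FDR of at most 0.1 were called. SEs were derived from the F statistic. Values per library of the groups compared are given for hox genes called in any comparison, the 6 with the highest mean CPM in control endoderm and in EEC WT, and that with the smallest p in each comparison, and hoxd13a, hoxa13b and others outside this rule were chosen after their values were seen. Members, lists and tests were chosen with earlier results of these data known. Alternatives were DESeq2 1.42.0, limma 3.58.1 voom with quality weights, RLE, no filter, an FDR of 0.05, only the groups compared, a replicate block and each library left out. The tests were checked on simulated counts: for Neurod1 against control edgeR recovered 28% of 4-fold and 84% of 16-fold changes, for EEC neurod1ΔUCE against EEC WT 27% and 58%, and for EEC WT against control 21% and 49%. Each simulation changed 100 genes 4-fold and 100 genes 16-fold. The counts were drawn with the dispersions edgeR fitted to the features past its filter, so the shares for DESeq2 and voom rest on edgeR's model. In EEC WT against control 38.1% of features were called, so its simulation does not measure recovery at that share. Of the simulated calls, 6.67 to 11.5% were unchanged genes with edgeR, 34.5 to 49.1% with DESeq2 and 4.92 to 8.43% with voom. Replicates are separate preparations of pooled animals.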

Additional observations from a re-analysis of the deposited data

Results flagged for a closer look

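In the 2 groups of 4 libraries, the summed hox level, the mean paralogue number and the 23 named genes gave 50 sets of values. In 5 of them a library lay far from the others. The cut used is passed by about 1 in 20 sets of independent, normally distributed values. CPM near 0 of genes from the same libraries are neither, and a set with 0 in all libraries but 1 always passes. The counts are therefore descriptions and show no excess over chance. Over all 48 members, 11 of 96 sets passed the cut. With Neurod1, replicate 3 had 40.9 CPM of hoxb7a, against 11.3, 14.6 and 14.5 CPM in the other libraries, and 44.0 CPM of hoxa3a, against 27.0, 25.3 and 25.4 CPM. In EEC neurod1ΔUCE, replicate 3 had 21.5 CPM of hoxc4a, against 7.18, 4.76 and 5.82 CPM in the others. The other 2 cases lie at the limit of counting: replicate 1 of EEC neurod1ΔUCE had 0.0697 CPM of hoxa2b (1 count) and replicate 2 had 0.467 CPM of hoxc10a (5 counts), with 0 counts in the other libraries.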

How the results depend on the processing

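Of 131 alternatives for the 9 comparisons without a called hox gene, 129 also called none. The other 2 were DESeq2, with 1 call with Neurod1ΔECD against Neurod1 (21 of 28368 features) and 1 in the joint test (353 of 28366). In EEC WT against control edgeR called 11 of 47 members and 7767 of 20397 features. DESeq2 called 17 of 47 members and 9135 of 28748 features, and voom 18 of 47 members and 9679 of 20397 features. Leaving out single libraries gave 7 calls of 48 members (6417 of 21140 features, without control replicate 3) to 16 of 48 (6536 of 21114, without EEC WT replicate 1). Whether members were called less often than features thus depended on the setting. Same-numbered libraries correlated at -0.38 to 0.46 in endoderm and -0.07 to 0.03 in EECs, so the numbers were not taken as pairs, and the replicate block gave 10 calls in EEC WT against control and 0 in the other comparisons. With log2(CPM + 1) as weight, the difference in mean paralogue number was 0.38 for Neurod1ΔECD against control and 0.35 against Neurod1, where reads as weight gave 0.90 and 0.67. Of 354 alternatives for the named genes, 324 kept their direction and side of the threshold, 17 lost the call, 3 gained it and 10 changed sign, all in EEC WT against control and none of them called. Leaving out single libraries gave log2 fold changes of -0.085 to 0.16 for hoxa3a, -0.31 to 0.39 for hoxb10a and -0.28 to 0.61 for hoxd11a, and voom gave -0.083 for hoxd11a. The causes were not tested. Depth limits hoxb1a, hoxa2b and HOXC13 (ENSDARG00000113877), which rest on few counts, and the simulated recovery of 4-fold changes was 21 to 28%. For EEC WT against control the simulation changed far fewer genes than were called in the data.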

Other observations

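Hox proteins bind DNA with cofactors of the Pbx and Meis families. Of 13 such genes listed, 11 were tested in endoderm, and none was called with any transgene or between the EEC groups. Between EEC WT and control endoderm, pbx1a was higher, at 71.9 ± 10.2 CPM in EEC WT and 9.49 ± 8.76 CPM in control endoderm (SD, n = 3 each), a log2 fold change of 2.91 with an adjusted p of 0.0023 in edgeR's quasi-likelihood test. pbx4 was lower, at 88.7 ± 23.7 CPM in EEC WT and 638 ± 378 CPM in control endoderm (SD, n = 3 each), a log2 fold change of -2.85 with an adjusted p of 0.012.

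Cdx factors regulate hox genes in vertebrate embryos and were listed with other regulators and cluster neighbours of the hox genes. Of the 9 tested between EEC WT and control endoderm, cdx4 and egr2b were called higher in EEC WT. By contrast, evx2, gbx1, gdf11 and hnf1ba were called lower. In this comparison 38.1% of all features were called. gbx1 and gdf11 stood at 0 CPM in every EEC WT library, but their lowest control value was also 0 CPM, so the groups met at 0. evx2 was low in control endoderm, at 1.44 ± 0.33 CPM (SD, n = 3), and stood at 0 CPM in EEC WT. egr2b had 59.6 ± 10.3 CPM in EEC WT and 0.86 ± 1.30 CPM in control endoderm (SD, n = 3 each), with an adjusted p of 7.4e-05 in edgeR's test. cdx4 was higher, at 42.3 ± 11.99 CPM in EEC WT and 14.9 ± 5.06 CPM in control endoderm (SD, n = 3 each), with an adjusted p of 0.018 in edgeR's test. In EEC neurod1ΔUCE cdx4 had 18.5 ± 5.02 CPM (SD, n = 4) and was not called against EEC WT. cdx1b had 449 ± 91.7 CPM in EEC WT and 312 ± 59.1 CPM in control endoderm (SD, n = 3 each) and was not called, with an adjusted p of 0.28. cdx1a went the other way without a call, at 9.70 ± 8.88 CPM in EEC WT and 17.7 ± 4.16 CPM in control endoderm (SD, n = 3 each). Its adjusted p in edgeR's test was 0.39. With Neurod1ΔECD cdx1b had 551 ± 105 CPM, against the same 312 ± 59.1 CPM in control endoderm (SD, n = 3 each), with an adjusted p of 0.75.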
